A study of Mus musculus with 12 samples.

Results

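The effect of 2 days of JUN induction on mouse osteoprogenitors was read over 3 sorted populations together, by setting 6 arrays labelled JUN against 6 labelled -JUN and adjusting every gene for its population. Arrays were assigned by their labels alone, and these 12 arrays are all 12 of the study. The populations are named SSC, CSP and Thy in the labels, and the design text writes BCSP and Thy+ for the last 2. Cells were sorted by flow cytometry into Trizol from limb bones, skull cap, scapula, vertebrae and ribs. The JUN arm holds the SSC, CSP and Thy arrays of mice 4 and 7. The -JUN arm holds the CSP and Thy arrays of mice 3 and 3b and the SSC arrays of mice 3 and 10. Each population therefore has 2 arrays against 2, and the arms rest on 2 mice against 3.

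All animals are described as JUN inducible, and induction in the pups was through doxycycline in the drinking water of the mother. The labels do not say whether the -JUN mice lacked doxycycline or an allele, and they give neither the promoter that drives JUN, nor the site of the transgene, nor the age of the pups. A mouse number shared by several titles is read as 1 animal, although only 3 of the SSC titles carry a date.

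JUN is a basic leucine zipper protein and a founding member of AP-1, the family of dimers that it forms with FOS and ATF proteins. AP-1 dimers bind the letters TGANTCA or TGACGTCA, and JUN is switched on when the kinase JNK, encoded by Mapk8 and its relatives, phosphorylates it. In bone, AP-1 proteins are known as regulators of both bone-forming and bone-resorbing cells.

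Sort markers were read first. Thy1, which encodes the surface protein that defines Thy, lay between 12.80 and 13.30 in the 4 Thy arrays and between 7.28 and 9.63 in the other 8 (log2 RMA values throughout). Eng, which encodes endoglin and separates SSC from CSP in this kind of sort, lay between 7.95 and 8.24 in SSC and between 9.07 and 10.40 in CSP and Thy. Both also differed between the arms, Thy1 by 0.64 ± 0.28 and Eng by 0.46 ± 0.20, and over the alternatives Thy1 stayed between 0.41 and 0.88 and Eng between 0.30 and 0.64. The 5 sort markers tested had a median difference of 0.46, and their part in the results was not tested. The leukocyte gene Ptprc was dim in every array, between 5.45 and 6.54, against array medians of 7.65 to 7.76. The endothelial gene Tek lay between 8.10 and 10.88.

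Some arrays stood apart before any gene was compared. The first principal component of the genes tested held 37.4% of the variance and placed the SSC and Thy arrays of mouse 4 at its end, with scores of 43.2 and 79.1 against -63.1 to 21.1 in the other 10. The poly-A controls, bacterial transcripts of the array that are normally added to the RNA before labelling, averaged 9.95 and 11.24 in the SSC arrays with JUN against 8.47 and 9.11 without, and 11.31 and 11.77 against 9.95 and 10.82 in CSP. In Thy they overlapped, at 11.34 and 12.28 against 11.33 and 11.92. Adjusted for population they lay 1.05 higher with JUN. Mouse 3 differs in sex from the other 4 mice, by Xist between 12.49 and 13.20 in its arrays against 6.11 to 7.29. Their part in the results was not tested, and the values were also computed with terms for the poly-A controls or for sex and without those arrays of mouse 4.

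**Figure D1:**
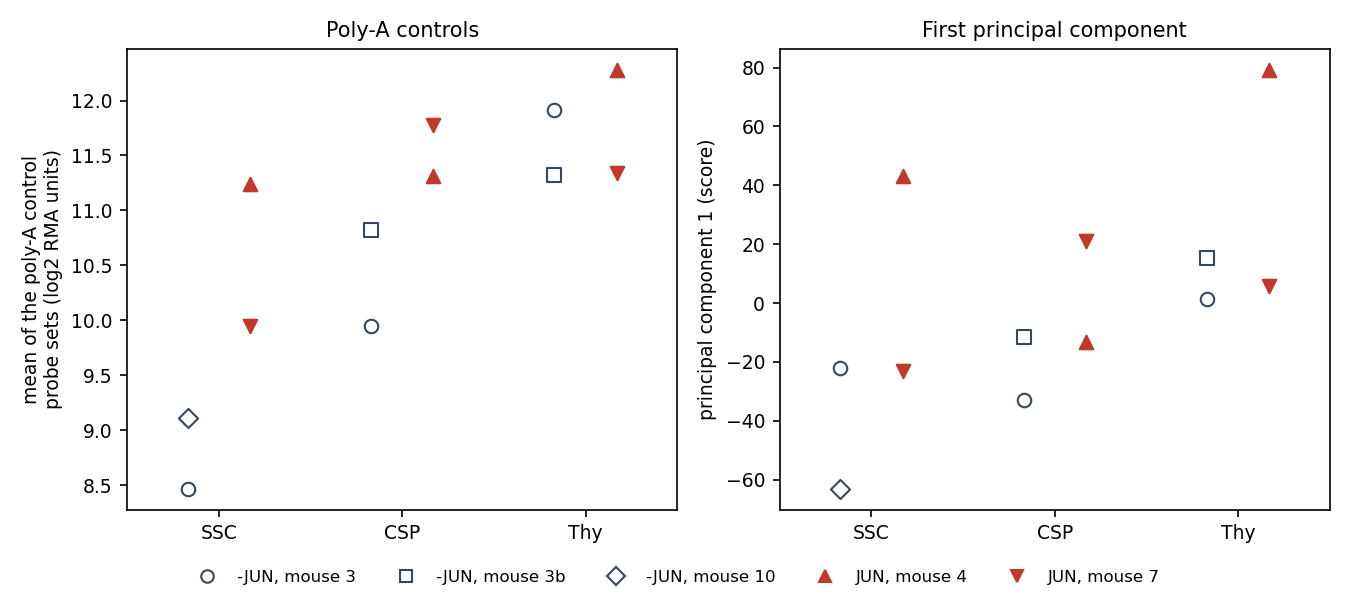
Mean log2 RMA value of the poly-A control probe sets (left axis panel) and score on the first principal component (right) for each of the 12 arrays, by population, with 1 point per array, shape for the mouse and fill for the arm. Poly-A controls lie higher in both JUN arrays of SSC and of CSP, and the SSC and Thy arrays of mouse 4 have the highest component scores, 43.2 and 79.1.

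Jun, the gene to be induced, did not read higher in the JUN arrays. In SSC it stood at 12.60 and 12.06 without JUN and at 13.18 and 12.13 with it. In CSP the values were 13.37 and 13.24 without and 12.92 and 12.82 with JUN, and in Thy 12.81 and 13.65 without and 13.03 and 12.90 with it. The arms thus overlapped in SSC and Thy and were separate, with JUN lower, in CSP. The pooled difference was -0.13 ± 0.23 (SE; limma, adjusted p = 0.778), and the other probe set of the gene gave -0.42 ± 0.18. The pooled difference turned to 0.040 without mouse 3b, 0.087 without mouse 7 and 0.028 without CSP. The labels do not say whether the transgene's message holds the parts these probe sets read, so these values are no check of the induction.

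No gene passed the threshold for the pooled effect. Of 12516 genes tested, 0 (0%) had an adjusted p under 0.05 in limma, and the lowest adjusted p was 0.287, shared by 848 genes. At an unadjusted p under 0.05 stood 2048 genes (16.4%), 1277 of them higher with JUN (10.2%) and 771 lower (6.16%). With each array centred on its median these became 1001 higher and 975 lower, so the split between directions moved with the scaling. The count also depended on the fit, with 374 with the poly-A controls as a covariate, 821 without mouse 3 and 2739 without mouse 7, where 1251 were higher and 1488 lower. The median difference over all genes was 0.07. Lower values went further: a difference of 1 or more, which is a 2-fold change, was reached by 157 genes that were lower (1.25%) and by 38 that were higher (0.304%).

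The directions were read in every population. A gene was higher with JUN by the group means of SSC, CSP and Thy alike in 3866 cases (30.9%) and lower in all 3 in 2612 (20.9%). Stricter, both JUN arrays lay above both -JUN arrays in each of the 3 populations for 356 genes (2.84%), and below for 111 (0.887%). With each array centred on its median these were 246 and 171, so the excess of higher genes depends on the scaling. Without the SSC and Thy arrays of mouse 4 they were 547 and 237, as fewer arrays have to be separate. With populations taken alone, arms did not overlap with JUN above for 22.7% of genes in SSC, 19.3% in CSP and 17.9% in Thy. The shares with JUN below were 15.7%, 11.9% and 10.8%. Counts by mouse, after the population means were subtracted, put both JUN mice above all 3 -JUN mice in 3000 genes (24.0%) and below them in 1730 (13.8%). With 2 mice against 3, an exact permutation test over mice cannot give a p below 0.1. The 3 arrays of 1 mouse are not separate animals, so the limma p-values measure only the spread between these arrays.

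**Figure D2:**
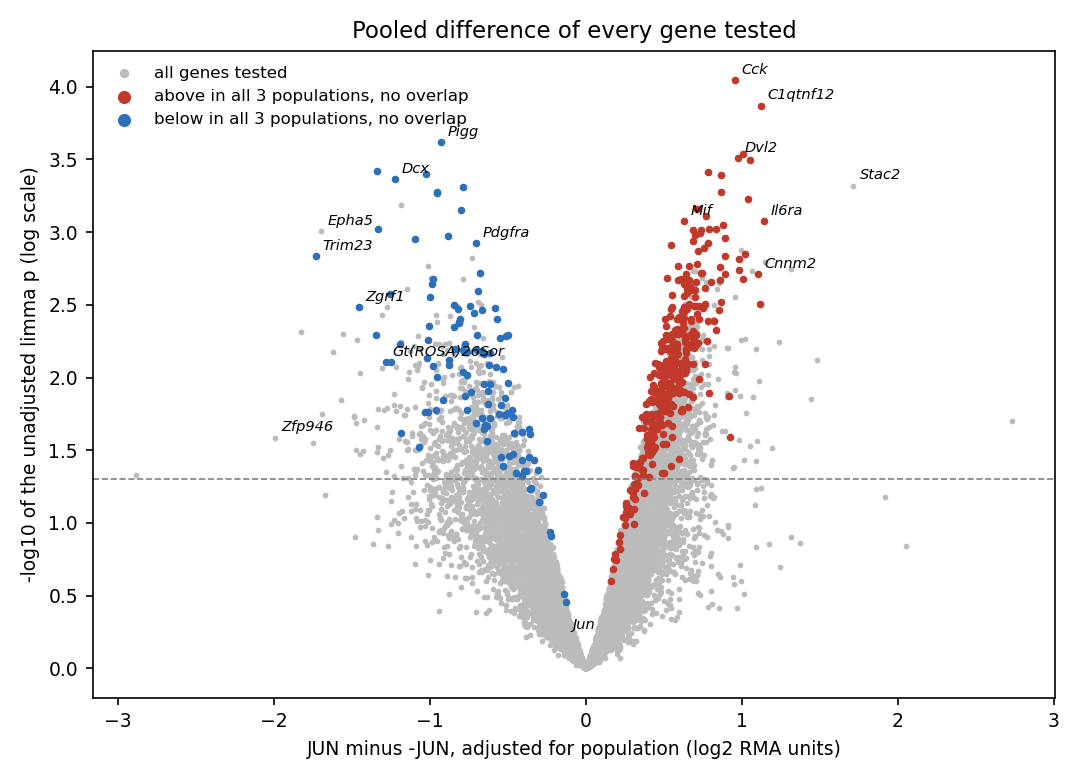
Pooled JUN minus -JUN difference of each of the 12516 genes tested (x axis, log2 RMA units) against -log10 of its unadjusted limma p (y axis; dashed line at 0.05). Red points are the 356 genes whose JUN arrays lie above the -JUN arrays in all 3 populations without overlap, blue points the 111 that lie below, and no gene passed after adjustment.

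Among the genes that stood higher with JUN, the 14 of lowest p with the same sign in all 3 populations differed by 0.63 to 1.72. They encode a peptide hormone, secreted proteins, chaperones, Wnt and cytokine signalling proteins and a chromatin regulator. The arms were separate in all 3 populations for 13 of the 14, and both JUN mice lay above all -JUN mice in each of the 14. Since p chose these genes, these counts describe them and support nothing. All 14 had an adjusted p of 0.287 in limma.

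Cck encodes cholecystokinin, a peptide hormone of gut and brain. It was dim, at 7.24 and 7.33 in SSC, 7.41 and 7.59 in CSP and 7.01 and 7.19 in Thy without JUN, against 8.06 and 8.38, 8.33 and 8.40, and 8.61 and 7.75 with it. Every JUN array lay above every -JUN array, whatever the population. The -JUN arrays, at 7.59 or less, lay below every array median. The filter on dim probe sets keeps those above the array median in 2 or more arrays. Cck thus passed it through JUN arrays alone, and its separation and call support nothing. Its difference of 0.96 ± 0.17 (1.94-fold) had the lowest p of the fit, and over 33 alternatives it stayed between 0.84 and 1.05. By mouse, relative to the population means, it stood at 0.56 and 0.40 in mice 4 and 7 and at -0.55, -0.40 and -0.42 in mice 3, 3b and 10.

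C1qtnf12, which encodes the secreted insulin-sensitising protein adipolin, read 10.46 and 10.16 in SSC, 10.35 and 10.70 in CSP and 10.43 and 10.76 in Thy without JUN. With JUN it read 11.24 and 11.80, 11.05 and 12.21, and 11.63 and 11.68. These arms too were separate over all 12 arrays. The difference was 1.12 ± 0.20 (2.18-fold), with 1.20, 1.10 and 1.06 in SSC, CSP and Thy.

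Men1 encodes menin, a tumour suppressor that works in histone methyltransferase complexes and is known to bind JUND. It was bright, with 10.11 and 9.71 in SSC, 9.59 and 10.03 in CSP and 10.26 and 10.76 in Thy without JUN, and 10.96 and 10.55, 10.41 and 10.98, and 11.61 and 11.16 with it. Within each population the arms were separate. The 3 population differences of Men1 were close to each other, at 0.84, 0.89 and 0.87, for a pooled 0.87 ± 0.18 (1.82-fold).

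Stac2, which encodes an adaptor of voltage-gated calcium channels, had the largest of the 14 differences and the least even one. Without JUN it ranged from 5.79 to 8.46 with a median of 6.91, and with JUN from 8.30 to 9.01 with a median of 8.71. It was separate in SSC and Thy and overlapped in CSP, where 1 -JUN array stood at 8.46. The pooled difference was 1.72 ± 0.36 (3.29-fold), with 2.42 in SSC, 0.91 in CSP and 1.82 in Thy. The interaction did not pass (adjusted p = 1.0, limma).

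Signalling proteins were among the rest. Dvl2, an adaptor that carries the Wnt signal from its receptors, ranged from 8.02 to 9.60 without JUN (median 8.96) and from 9.51 to 10.44 with it (median 9.84), a difference of 0.98 ± 0.20. Il6ra, the receptor chain that binds interleukin 6, ranged from 7.92 to 9.20 (median 8.54) and from 8.99 to 10.50 (median 9.64), a difference of 1.14 ± 0.26. Both overlapped over the pooled arms and were separate within each population. Mif, which encodes the cytokine macrophage migration inhibitory factor, was separate over all arrays, from 10.62 to 11.05 without JUN (median 10.86) and from 11.18 to 11.69 with it (median 11.54), although its difference of 0.63 ± 0.14 was the smallest of the 14.

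The others encode transporters, chaperones and housekeeping proteins. The small heat shock protein gene Hspb7 differed by 1.01 ± 0.20, the folate transporter gene Slc46a1 by 1.06 ± 0.21 and the nuclear pore gene Nup188 by 1.04 ± 0.23. Card19, a mitochondrial protein gene with a caspase recruitment domain, lay from 9.72 to 10.02 with JUN and from 8.66 to 9.50 without, and differed by 0.78 ± 0.16. Aif1l, whose product binds actin, Coq8b of coenzyme Q synthesis and Tmem44 stood at 0.87 ± 0.19, 0.77 ± 0.17 and 0.72 ± 0.16. Genes without overlap and with a larger difference but a higher p included Cnnm2, linked to magnesium transport, at 1.10 ± 0.28, and the small heat shock protein gene Hspb6 at 1.12 ± 0.30.

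**Figure D3:**
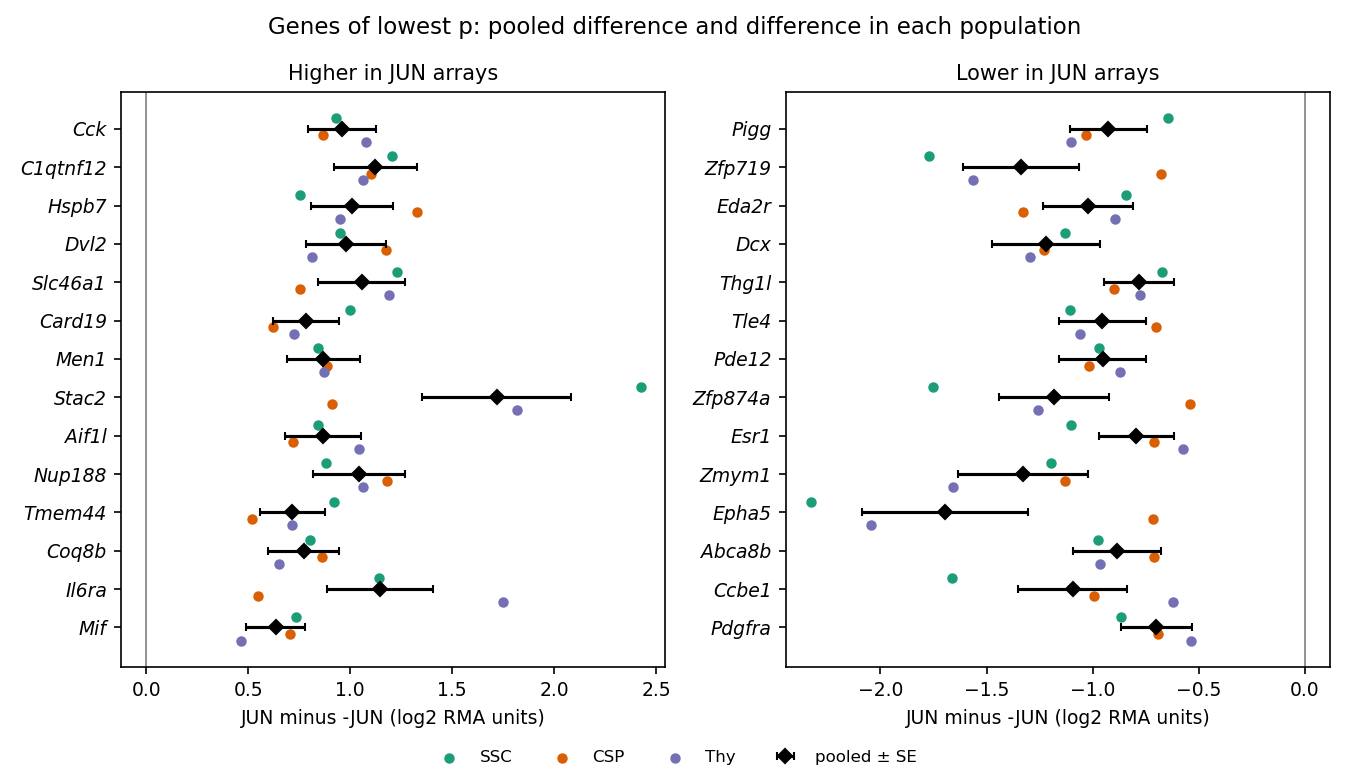
JUN minus -JUN difference in log2 RMA units for the 14 genes of lowest p in each direction, with the pooled value ± SE as black diamonds and the differences in SSC, CSP and Thy as coloured points. All population differences share the sign of the pooled value, by the rule that chose the genes, and the 3 differences lie within 0.84 to 0.89 for Men1 but within 0.91 to 2.42 for Stac2.

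Other probe sets of these genes, which the choice did not use, gave the same direction in 14 of 14 cases over the 9 genes that have them. Over all genes tested, 7452 of 10518 other probe sets had the direction of the chosen one. Men1 read 0.58 ± 0.21 and 0.17 ± 0.14 on its others, Dvl2 0.32 ± 0.21, Il6ra 0.73 ± 0.29 and Hspb7 0.73 ± 0.40. The other probe sets are read on the same 12 RNA samples, and most of these values were smaller than those of the chosen probe set.

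Genes that stood lower with JUN differed by -1.70 to -0.70 in the 14 of lowest p. They encode receptors of growth factors, oestrogen and ephrins, a corepressor, a neuronal microtubule protein and zinc finger proteins. Of the 14, 12 were separate in all 3 populations, and both JUN mice lay below all -JUN mice in each. Here too p chose the genes, so these counts describe them and support nothing. The adjusted p was 0.287 in limma for all of them as well.

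Pdgfra, the receptor for platelet-derived growth factor that marks mesenchymal progenitors, was bright at 12.90 and 12.83 in SSC, 13.51 and 12.90 in CSP and 12.67 and 13.05 in Thy without JUN. With JUN it stood at 11.87 and 12.13, 12.56 and 12.46, and 12.08 and 12.58. Every JUN array lay below every -JUN array. The difference was -0.70 ± 0.17, a 1.62-fold lower level, and it was -0.37 at its weakest over the alternatives. Of its other probe sets 1 read 0.08 ± 0.22 and the other -0.55 ± 0.49, so the probe sets of this gene differ. Pdgfrb, the related receptor, stood at 0.16 ± 0.28.

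Tle4, a Groucho-family corepressor, was at 10.05 and 10.61 in SSC, 10.65 and 10.02 in CSP and 9.43 and 9.90 in Thy without JUN, and at 9.26 and 9.19, 9.65 and 9.61, and 8.15 and 9.07 with it. The arms were separate in each population, for a difference of -0.96 ± 0.20 (1.94-fold lower). Its other probe set gave 0.14 ± 0.27. Another member of the family, Tle3, went the other way at 0.89 ± 0.23 and was also separate in all 3 populations, while Tle1 and Tle2 stood at -0.14 ± 0.35 and 0.06 ± 0.24. Of the 6 members of the family tested 4 were higher and 2 lower. At an unadjusted p under 0.05, 2 were higher and 1, Tle4, lower, against 10.2% and 6.16% of all genes. The relatives were looked up after the value of Tle4 was seen, and the counts include Tle4 itself, so they support nothing.

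Dcx encodes doublecortin, a microtubule protein of migrating neurons. Without JUN it read 9.05 and 8.89 in SSC, 8.71 and 9.23 in CSP and 8.81 and 7.85 in Thy, and with JUN 8.32 and 7.35, 8.13 and 7.35, and 6.57 and 7.50. Arms were separate within each population and the 3 differences were alike, at -1.13, -1.23 and -1.30, for a pooled -1.22 ± 0.25 (2.33-fold lower). Of 12 neuron marker genes tested, 9 were higher and 3 lower with JUN, against 57.1% higher over all genes. Dcx was the sole member at an unadjusted p under 0.05 (8.33%), against 6.16% of all genes lower at that level.

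Esr1, the oestrogen receptor alpha, was at 10.53 and 10.55 in SSC, 10.65 and 9.93 in CSP and 9.59 and 10.05 in Thy without JUN. It was at 9.29 and 9.59, 9.60 and 9.55, and 9.11 and 9.37 with it. The arms were separate in each population, and the difference was -0.80 ± 0.18 (1.74-fold lower), against -0.57 ± 0.22 and 0.08 ± 0.33 on its other probe sets. With a covariate for sex it was -0.76, and over all alternatives it ranged from -0.91 to -0.43.

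Epha5, an ephrin receptor, had the largest of the 14 differences at -1.70 ± 0.39 (3.24-fold lower) and overlapped in CSP. It ranged from 5.76 to 9.12 without JUN (median 7.40) and from 4.95 to 6.60 with it (median 5.68). These values lie mostly below the array medians. Without the filter on dim probe sets Epha5 was read on another probe set of higher mean, where the difference was -0.45, so the probe sets of this gene differ. Eda2r, a receptor of ectodysplasin A2 and a p53 target, was separate over all arrays, from 7.93 to 9.12 without JUN (median 8.28) and from 6.98 to 7.61 with it (median 7.35), at -1.02 ± 0.21. Its JUN arrays lay below every array median. Eda2r thus passed the filter on dim probe sets through -JUN arrays alone, and its separation and call support nothing.

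Zinc finger genes made up part of the remainder. Zfp719 stood at -1.34 ± 0.28, Zfp874a at -1.18 ± 0.26 and Zmym1 at -1.33 ± 0.31, with Zfp874a overlapping in CSP. Pigg, an enzyme of glycosylphosphatidylinositol anchors, differed by -0.93 ± 0.18, the mitochondrial phosphodiesterase gene Pde12 by -0.95 ± 0.20, and Thg1l, which adds a guanosine to transfer RNA, by -0.78 ± 0.17. Pigg read 6.28 to 7.10 with JUN, below every array median. It thus passed the filter on dim probe sets through -JUN arrays alone, and its call supports nothing. The lymphatic growth gene Ccbe1 stood at -1.09 ± 0.26 and the transporter gene Abca8b at -0.88 ± 0.21. Of the 5 transporter genes of the Abca5, Abca6, Abca8a, Abca8b and Abca9 cluster, which were looked up after the value of Abca8b was seen, all 5 were lower, by -0.61 to -0.88, and 4 had an unadjusted p under 0.05, against 6.16% of all genes lower at that level. Both counts include Abca8b itself, so they support nothing. With the poly-A controls as a covariate Abca5 stood at -0.043, Abca6 at -0.10 and Abca9 at -0.22.

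Among genes with larger differences without overlap but higher p, Trim23, a ubiquitin ligase gene, stood at -1.73 ± 0.42, Zgrf1 at -1.45 ± 0.40 and the fibrinogen-like gene Fgl2 at -1.34 ± 0.39. Zgrf1 read 5.61 to 7.22 with JUN, below every array median. It thus passed the filter on dim probe sets through -JUN arrays alone, and its separation supports nothing. Gt(ROSA)26Sor is the non-coding transcript of the Rosa26 locus, a widely used site for transgenes. It read 8.99 and 10.05 in SSC, 9.09 and 9.14 in CSP and 8.23 and 8.66 in Thy without JUN, against 7.92 and 8.75, 8.57 and 7.74, and 5.38 and 8.11 with it. The arms were separate in each population and the difference was -1.28 ± 0.40 (2.43-fold lower), ranging from -1.74 to -0.73 over the alternatives. The labels do not name the locus of the transgene of these mice.

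Of the other probe sets of the 14 lower genes, 6 of 10 shared the direction, over 7 genes. For Thg1l the other probe set read 0.40 ± 0.25. Whether this share differs from that of the higher genes was not tested.

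**Figure D4:**
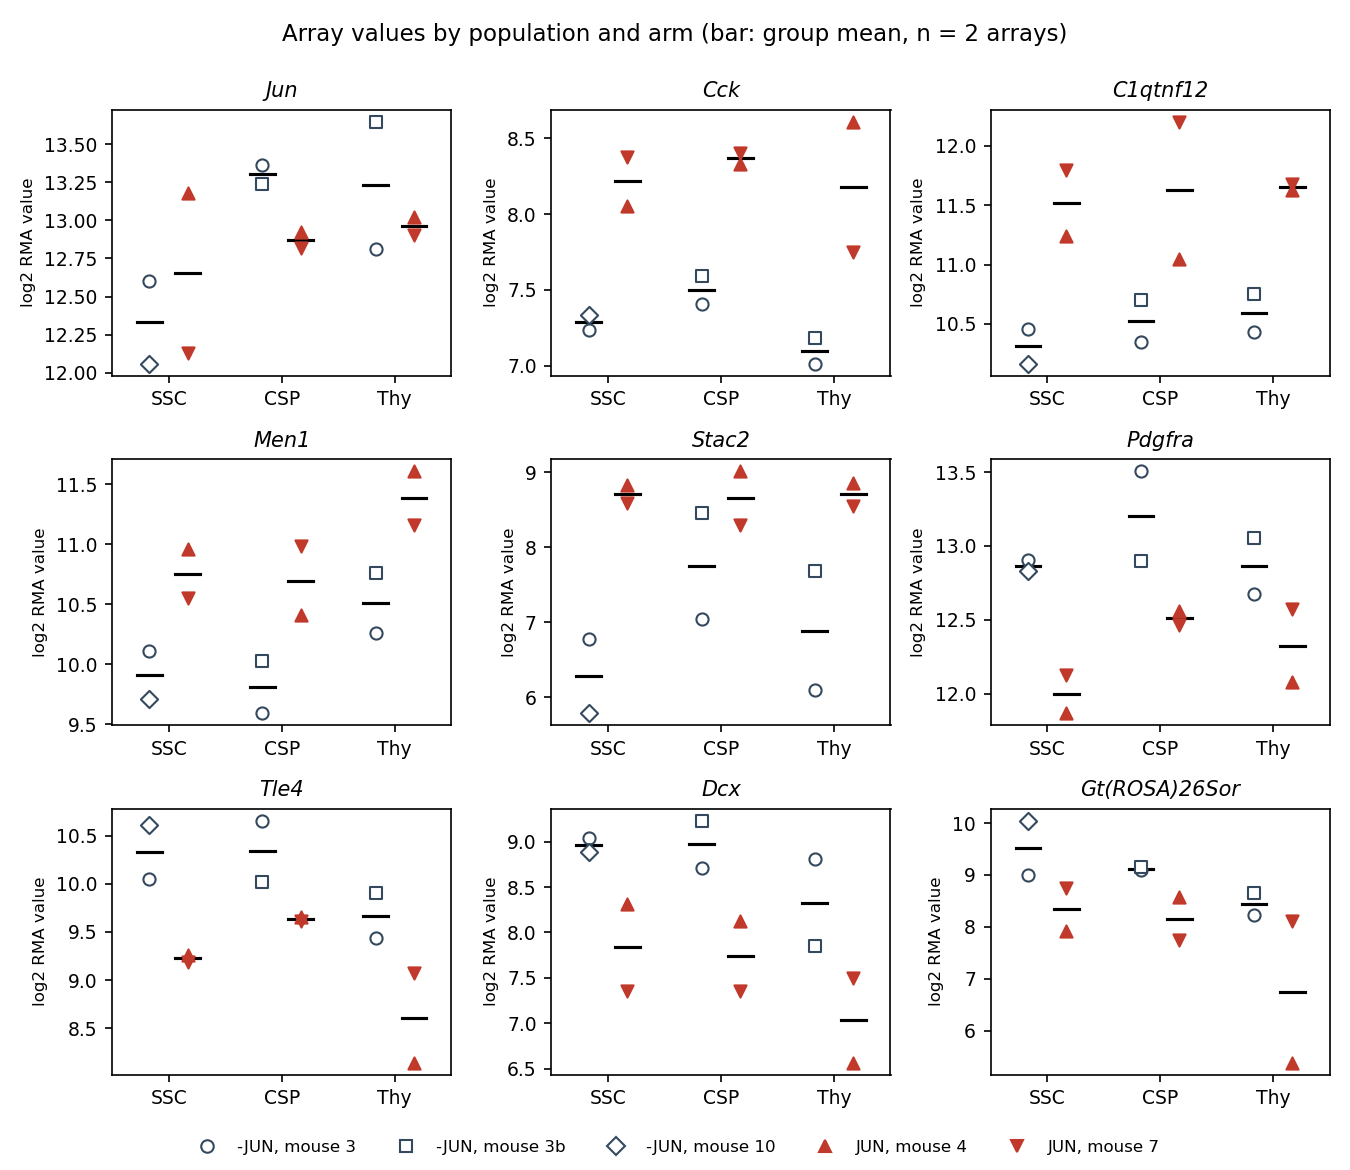
Log2 RMA value of 9 genes in each of the 12 arrays (y axis), by population (x axis), with open points for -JUN, filled points for JUN, shape for the mouse and a bar for the mean of the 2 arrays of a group. Cck, C1qtnf12 and Pdgfra are separate over all arrays, Men1, Tle4, Dcx and Gt(ROSA)26Sor within each population, Stac2 overlaps in CSP, and Jun overlaps in SSC and Thy.

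Promoter windows from RefSeq (GRCm38.p6), reaching from 250 bases before to 50 after a gene's start, were searched on both strands for the AP-1 letters TGANTCA and TGACGTCA, which do not match the same sites. Windows were found for 10077 of the 12516 genes tested, and 6.14% of these held TGANTCA and 3.37% TGACGTCA. Of the 11 higher genes with a window, Dvl2 held TGANTCA and Mif held TGACGTCA, and of the 11 lower genes Zfp874a held TGACGTCA and none TGANTCA. The 250 bases before the start of these 3 genes are shown with the matched letters in capitals, beside Cck, which had the lowest p and holds neither. Cck lies at chr9:121495695-121495944 on the minus strand, Dvl2 at chr11:70000342-70000591 on the plus strand, Mif at chr10:75860278-75860527 and Zfp874a at chr13:67451625-67451874, both on the minus strand.
Cck: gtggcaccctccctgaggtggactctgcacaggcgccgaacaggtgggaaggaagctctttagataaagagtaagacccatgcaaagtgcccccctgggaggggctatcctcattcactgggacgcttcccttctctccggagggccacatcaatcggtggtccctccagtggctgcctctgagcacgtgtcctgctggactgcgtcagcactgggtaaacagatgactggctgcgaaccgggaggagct
Dvl2: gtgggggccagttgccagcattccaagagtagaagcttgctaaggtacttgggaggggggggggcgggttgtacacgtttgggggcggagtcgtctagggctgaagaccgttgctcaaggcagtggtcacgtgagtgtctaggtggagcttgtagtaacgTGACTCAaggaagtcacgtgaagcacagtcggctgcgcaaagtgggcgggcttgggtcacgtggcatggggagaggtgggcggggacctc
Mif: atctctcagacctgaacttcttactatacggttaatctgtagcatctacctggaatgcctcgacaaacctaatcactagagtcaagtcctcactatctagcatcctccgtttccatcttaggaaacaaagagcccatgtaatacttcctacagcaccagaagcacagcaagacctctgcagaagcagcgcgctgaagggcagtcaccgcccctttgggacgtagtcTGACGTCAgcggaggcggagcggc
Zfp874a: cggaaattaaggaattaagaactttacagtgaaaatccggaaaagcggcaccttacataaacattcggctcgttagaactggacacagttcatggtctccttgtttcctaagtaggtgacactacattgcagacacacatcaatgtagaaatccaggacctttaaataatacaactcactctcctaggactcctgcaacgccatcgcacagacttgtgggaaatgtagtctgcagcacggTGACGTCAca
The match starts 90 bases before the start of Dvl2, 24 before that of Mif and 10 before that of Zfp874a. Over the 356 genes above in all populations, TGANTCA was in 7.48% and TGACGTCA in 2.38% of the 294 with a window, and over the 111 below in 4.71% and 3.53% of 85, so these shares lay near those of all genes tested. Over the whole table of 27025 genes they were 8.97% and 2.03%.

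The AP-1 family itself did not lean one way. Of 25 listed genes 22 were tested, and 14 were higher and 8 lower with JUN, against 57.1% higher over all genes. The median difference was 0.07, the same as over all genes. In each direction 1 (4.55%) had an unadjusted p under 0.05, against 10.2% higher and 6.16% lower of all genes. Atf2, a partner of JUN that binds TGACGTCA, ranged from 10.46 to 12.02 without JUN (median 11.40) and from 9.08 to 11.02 with it (median 10.74), at -0.77 ± 0.26. Atf6, the membrane-bound factor of endoplasmic reticulum stress, stood at 0.36 ± 0.16. The median of the family turned below 0 in 12 of 33 alternatives, down to -0.21 without mouse 4.

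Upstream of JUN, 12 of 15 listed genes of the JNK pathway were tested, 7 were higher and 5 lower, with a median of 0.04. None was higher and 2 were lower at an unadjusted p under 0.05, against 6.16% of all genes lower at that level. Mapk8, which encodes the kinase JNK1, ranged from 11.32 to 12.14 without JUN and from 10.93 to 11.73 with it, at -0.32 ± 0.14. Map3k1, a kinase that starts the cascade, was separate in all 3 populations at -0.77 ± 0.27, with its lowest value of 5.90 in a CSP array with JUN. Its JUN arrays, at 7.34 or less, lay below every array median. It thus passed the filter on dim probe sets through -JUN arrays alone, and its call supports nothing. Downstream, of 20 textbook AP-1 targets 16 were tested, 11 were higher and 5 lower, with a median of 0.24, against 57.1% higher over all genes. That median was 0.015 with the poly-A controls as a covariate and 0.045 without mouse 4. The urokinase receptor gene Plaur stood at 0.78 ± 0.29 and Il6 at -0.97 ± 0.43. The difference of Il6 came from wide values, from 8.69 to 12.30 with JUN (median 11.49) and from 10.87 to 12.80 without (median 12.37), and Plaur stood between 0.35 without mouse 4 and 1.22 without mouse 7.

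Ligands and receptors of skeletal signalling gave no common direction, and none passed the adjusted threshold. All 18 listed genes of the TGF-beta list were tested, 10 were higher and 8 lower, with a median of 0.02. At an unadjusted p under 0.05, 1 was higher (5.56%) and 2 lower (11.1%), against 10.2% and 6.16% of all genes. The ligand gene Tgfb1 stood at 0.95 ± 0.42. Tgfbr1, the signalling receptor of TGF-beta, was separate in all 3 populations, with 11.44 and 11.77, 11.91 and 11.27, and 10.43 and 10.69 in SSC, CSP and Thy without JUN, and 10.16 and 11.05, 11.15 and 10.45, and 9.53 and 10.34 with it. Its difference was -0.81 ± 0.23. Bmpr2, the type II receptor of bone morphogenetic proteins, stood at -0.85 ± 0.32 with -0.82, -0.86 and -0.86 in the populations, yet -0.01 ± 0.19 on its other probe set. Tgfbr2, Bmpr1a and Bmpr1b stood at -0.31 ± 0.17, -0.20 ± 0.27 and -0.27 ± 0.23, none at an unadjusted p under 0.05, and the first 2 turned positive under some alternatives.

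On the ligand side, Gdf5, a ligand of joint formation, stood at 0.89 ± 0.34, Bmp6 at 0.62 ± 0.25, and Bmp1, a protease that trims procollagen and BMP antagonists, at 0.49 ± 0.20. Of 22 genes of the BMP list tested (26 listed), 15 were higher and 7 lower, against 57.1% and 42.9% of all genes. At an unadjusted p under 0.05, 3 were higher and 1 lower, against 10.2% and 6.16% of all genes. The median of the list was 0.20. This median turned to -0.065 without mouse 4 and to -0.026 with the poly-A controls as a covariate. Wnt ligand genes tested were 10 of 17, with Wnt11 at 0.58 ± 0.19 and Wnt5b at 0.71 ± 0.21. In the Wnt list of receptors, inhibitors and targets, Fzd4 stood at -0.65 ± 0.26, the inhibitor gene Dkk2 at -0.96 ± 0.43 and the nuclear factor gene Lef1 at 0.47 ± 0.18. With the poly-A controls as a covariate Dkk2 turned to 0.052.

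Growth factor signalling beyond these was mixed. Fgf7 was separate in all 3 populations at -1.07 ± 0.43, but stood at -0.028 with the poly-A controls as a covariate and at -1.73 without mouse 7. Also separate were Fgfr4 at 0.44 ± 0.18 and Etv4, a nuclear target of FGF signalling, at 0.43 ± 0.17. Vegfb stood at 0.55 ± 0.18 and Erbb2 at 0.50 ± 0.23. Of 17 ephrin and Eph receptor genes tested, 3 (17.6%) were higher at an unadjusted p under 0.05, against 10.2% of all genes. They were Ephb4 at 0.69 ± 0.20, Efna4 at 0.79 ± 0.30 and Ephb6 at 0.75 ± 0.26. Epha5 was the sole lower one (5.88%), against 6.16% of all genes. Efna4 without JUN (6.21 to 7.44) and Epha5 with it (4.95 to 6.60) lay below every array median. Each thus passed the filter on dim probe sets through 1 arm alone, and these 2 calls support nothing. Efna4 stood at 0.29 without mouse 7. Of the Hedgehog list, the receptor gene Ptch1 stood at -0.86 ± 0.39 and the inhibitor gene Sufu at 0.79 ± 0.29.

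Among metabolic lists, the ATF4 and mitochondrial stress list and the glycolysis and hypoxia list had medians above that of all genes in each population. Of the 16 genes of the former 13 were tested, and 11 were higher and 2 lower, against 57.1% higher over all genes. The median was 0.32, and 4 (30.8%) were higher at an unadjusted p under 0.05, against 10.2% of all genes. Slc7a5, a transporter of large neutral amino acids, was separate in each population, with 9.61 and 8.48, 9.22 and 9.46, and 9.71 and 9.49 without JUN and 10.58 and 9.84, 9.98 and 9.94, and 10.87 and 9.99 with it, at 0.87 ± 0.24. Phgdh of serine synthesis, separate as well, stood at 0.58 ± 0.18, the mitochondrial enzyme gene Pck2 at 0.66 ± 0.19 and the glutathione-degrading enzyme gene Chac1 at 1.19 ± 0.49. Chac1 read 5.42 to 6.71 without JUN, below every array median. It thus passed the filter on dim probe sets through JUN arrays alone, and its call supports nothing. With the poly-A controls as a covariate Chac1 stood at 0.21. The level of Atf4 itself stood at 0.06. The list's median was 0.04 with the poly-A controls as a covariate and 0.56 without mouse 7.

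Cytosolic aminoacyl-tRNA synthetases, which charge transfer RNA and were looked up after the ATF4 values were seen, were higher for 15 of 19 genes, 5 of them at an unadjusted p under 0.05, against 57.1% and 10.2% of all genes. Aars, Sars and Qars, for alanine, serine and glutamine, were separate in each population at 0.54 ± 0.18, 0.48 ± 0.17 and 0.35 ± 0.15. Of the glycolysis and hypoxia list, 18 of 20 genes were tested, 15 were higher and 3 lower, and 3 (16.7%) were higher at an unadjusted p under 0.05. Their median was 0.33 and stayed between 0.12 and 0.45 over the alternatives. The triosephosphate isomerase gene Tpi1 stood at 0.50 ± 0.17 and was separate in each population, and the kinase genes Pkm and Pfkl stood at 0.61 ± 0.23 and 0.82 ± 0.31. Car9, an enzyme gene of hypoxia, was at 1.13 without reaching an unadjusted p under 0.05.

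In cholesterol synthesis the mevalonate kinase gene Mvk stood at 0.58 ± 0.18 and Mvd at 0.62 ± 0.21, while the isomerase gene Idi1 stood at -1.0 ± 0.43. Of 22 mitochondrial ribosomal protein genes tested, 18 were higher, against 57.1% of all genes, and 3 of them (13.6%) at an unadjusted p under 0.05, near the 10.2% of all genes. Their median was 0.16, or 0.05 without mouse 7, against 12 of 22 genes of the respiratory chain with a median of 0.04. Mrps7 was separate in each population at 0.34 ± 0.15, and the complex I gene Ndufv1 was at 0.42 ± 0.17.

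Of 15 heat shock and chaperone genes tested, 8 were higher and 7 lower, with a median of 0.13 that turned to -0.15 without mouse 4. At an unadjusted p under 0.05, 1 was higher (6.67%) and 3 lower (20%), against 10.2% and 6.16% of all genes. The small heat shock protein gene Hspb1 was separate in all 3 populations, at 11.69 and 10.90, 11.12 and 11.71, and 12.14 and 11.95 without JUN and 12.19 and 11.90, 11.95 and 12.19, and 12.80 and 12.53 with it, a difference of 0.67 ± 0.18. All 6 small heat shock protein genes tested were higher, from 0.25 to 1.12, against 57.1% of all genes. The set was looked up after the values of Hspb7 and Hspb6 were seen and counts both, so this count supports nothing. Of the 6, Hspb1, Hspb6 and Hspb7 had an unadjusted p under 0.05, against 10.2% of all genes. Hspb6 read 5.87 to 7.07 without JUN, below every array median, and passed the filter on dim probe sets through JUN arrays alone. The called lower genes were others. Dnaja1 and Dnajb4, cochaperones of HSP70, stood at -0.60 ± 0.21 and -0.62 ± 0.25, and the mitochondrial chaperonin gene Hspd1 at -0.55 ± 0.22. Hspa9, the mitochondrial HSP70, stood at -0.38 ± 0.17 and was separate in each population.

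Potassium channel genes had a median above that of all genes. Of 32 listed potassium channel genes 23 were tested, 16 were higher and 7 lower, with a median of 0.30, and 4 (17.4%) were higher at an unadjusted p under 0.05, against 57.1% and 10.2% of all genes. The median was 0.11 without mouse 4. Kcnn4, a calcium-activated channel, stood at 0.96 ± 0.26 and Kcnd1, a channel of the transient outward current, at 0.78 ± 0.23. The 13 calcium and sodium channel genes tested had a median of 0.0061, 8 of them higher, and it turned negative in 9 alternatives. Among these Cacnb1, a beta subunit of voltage-gated calcium channels, was separate in each population at 0.84 ± 0.19. Of 14 genes of neuropeptides and their receptors tested, 11 were higher and 3 lower, with a median of 0.14. At an unadjusted p under 0.05, 1 was higher (7.14%) and 2 lower (14.3%), against 10.2% and 6.16% of all genes. The neuropeptide genes Nts and Tac1 were among the lower, at -1.19 ± 0.35 and -0.66 ± 0.28, opposite to Cck. Nts read 5.81 to 7.44 with JUN, below every array median. It thus passed the filter on dim probe sets through -JUN arrays alone, and its call supports nothing.

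Proliferation genes gave no common direction. Of 18 S phase genes tested 11 were higher and of 21 mitosis genes 10, with medians of 0.07 and -0.01. Mcm4, part of the replicative helicase, stood at -0.98 ± 0.31 and was separate in each population, while Uhrf1, which keeps up DNA methylation in S phase, stood at 0.66 ± 0.21. The mitotic kinase gene Ttk stood at -0.80 ± 0.26 and another, Aurkb, at 0.47 ± 0.18.

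Matrix genes were led by proteases and their relatives. Mmp16, a membrane-bound metalloproteinase, was separate in all 3 populations at -0.74 ± 0.20, and Mmp23, another, was separate in the opposite direction at 0.48 ± 0.16. Adamts12 stood at -0.97 ± 0.29. Of 40 collagen genes tested 30 were higher, against 57.1% of all genes, with a median of 0.18. At an unadjusted p under 0.05 stood 4 of them, among them Col16a1 at 0.81 ± 0.35 and Col18a1 at 0.58 ± 0.26, a share near the 10.2% of all genes. The collagen median was -0.04 without mouse 4 and 0.42 without mouse 7.

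Clock genes and genes of defence were read as well. Nr1d1, the repressor REV-ERB alpha, stood at 0.73 ± 0.20 and was separate in each population, Dbp at 0.72 ± 0.26 and Per1 at 0.64 ± 0.26, against Clock at -0.69 ± 0.28. The time of day of each sort is not given in the labels. All 6 complement genes tested, of 16 listed, were lower in the pooled difference, against 42.9% of all genes. By the group means, 4 of the 6 were lower in every population. At an unadjusted p under 0.05, 2 were lower (33.3%), against 6.16% of all genes. The median was -0.26, and it was -0.030 without mouse 4, -0.092 with the poly-A controls as a covariate and -0.57 without mouse 7. The C1 protease genes C1s1 and C1ra stood at -0.60 ± 0.20 and -0.53 ± 0.24, and C1ra at -0.10 without mouse 4. Tnfaip3, which restrains NF-kB, stood at -0.96 ± 0.31, and the interferon-induced Rsad2 was separate in each population at 0.63 ± 0.17. Rsad2 read 6.80 to 7.36 without JUN, below every array median. It thus passed the filter on dim probe sets through JUN arrays alone, and its separation and call support nothing. Of 11 interferon response genes tested, 5 were higher and 6 lower, with a median of -0.02.

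Zinc finger genes named Zfp were the largest family and tilted lower. Of 264 tested, 95 were higher and 169 lower, against 7142 (57.1%) higher and 5374 (42.9%) lower over all genes. The median was -0.16, from -0.25 in SSC to -0.08 in CSP and -0.05 in Thy. Of these genes 27 were lower (10.2%) and 17 higher (6.44%) at an unadjusted p under 0.05, against 6.16% and 10.2% of all genes. With the poly-A controls as a covariate the median was 0.06, and without the SSC and Thy arrays of mouse 4 it was -0.02. On the higher side Zfp579 was separate in each population at 0.99 ± 0.24, and on the lower side Zfp946 stood at -1.99 ± 0.78, with values from 5.79 to 10.30 with JUN.

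Markers of other cells were read beside these lists. In bulk arrays, fewer cells of a type and less RNA per cell cannot be told apart. Of 26 skeletal muscle genes 15 passed the filter on dim probe sets and these were higher in 15 cases, with a median of 0.50, or 0.05 in SSC, 0.67 in CSP and 0.56 in Thy. Of these 5 had an unadjusted p under 0.05 against 10.2% of all genes, among them Des at 0.58 ± 0.18 and Tnnt3 at 0.50 ± 0.21. The mean of the list ran from 8.39 to 8.76 over the -JUN arrays and from 8.48 to 9.46 over the JUN arrays. Of 14 neutrophil genes only 4 passed that filter, all 4 higher with a median of 0.58, and their mean ran from 6.87 to 8.29 and from 7.04 to 8.49, around the array medians. The cathelicidin gene Camp stood at 0.77 ± 0.20 and S100a8 at 0.73 ± 0.30. S100a8 read 6.29 to 7.74 without JUN and 6.40 to 9.12 with it. Since the filter keeps a gene that is bright in 2 arrays alone, members that failed it are not counted here. Dim members can pass it through the arm in which they are high, so these counts describe the members and support nothing.

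Cartilage and fat markers varied more between arrays than between arms. Of 25 chondrocyte genes tested 24 were higher, against 57.1% of all genes, with a median of 0.71. Yet 1 alone (4%), the regulator gene Sox6 at 1.09 ± 0.47, had an unadjusted p under 0.05, against 10.2% of all genes. The mean of that list ran from 8.52 to 12.46 over the -JUN arrays and from 9.15 to 12.70 over the JUN arrays, and its median turned to -0.35 without mouse 4 and to 1.60 without mouse 7. Of 14 adipocyte and reticular genes tested, 9 were lower, against 42.9% of all genes, with a median of -0.10. Adipoq stood at -1.07 ± 0.32, and Lpl, separate in each population, at -1.18 ± 0.46, from 10.18 to 13.05 with JUN (median 12.91) and from 13.01 to 13.88 without (median 13.33). With the poly-A controls as a covariate Lpl was at -0.04. Endothelial markers stood at a median of 0.04 (10 genes), macrophage markers at 0.41 (8), smooth muscle at 0.26 (10) and osteoblast and osteocyte genes at 0.30 (10). The last turned to -0.27 with the poly-A controls as a covariate and to -0.15 without mouse 4. Their part in the pooled results was not tested.

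**Figure D5:**
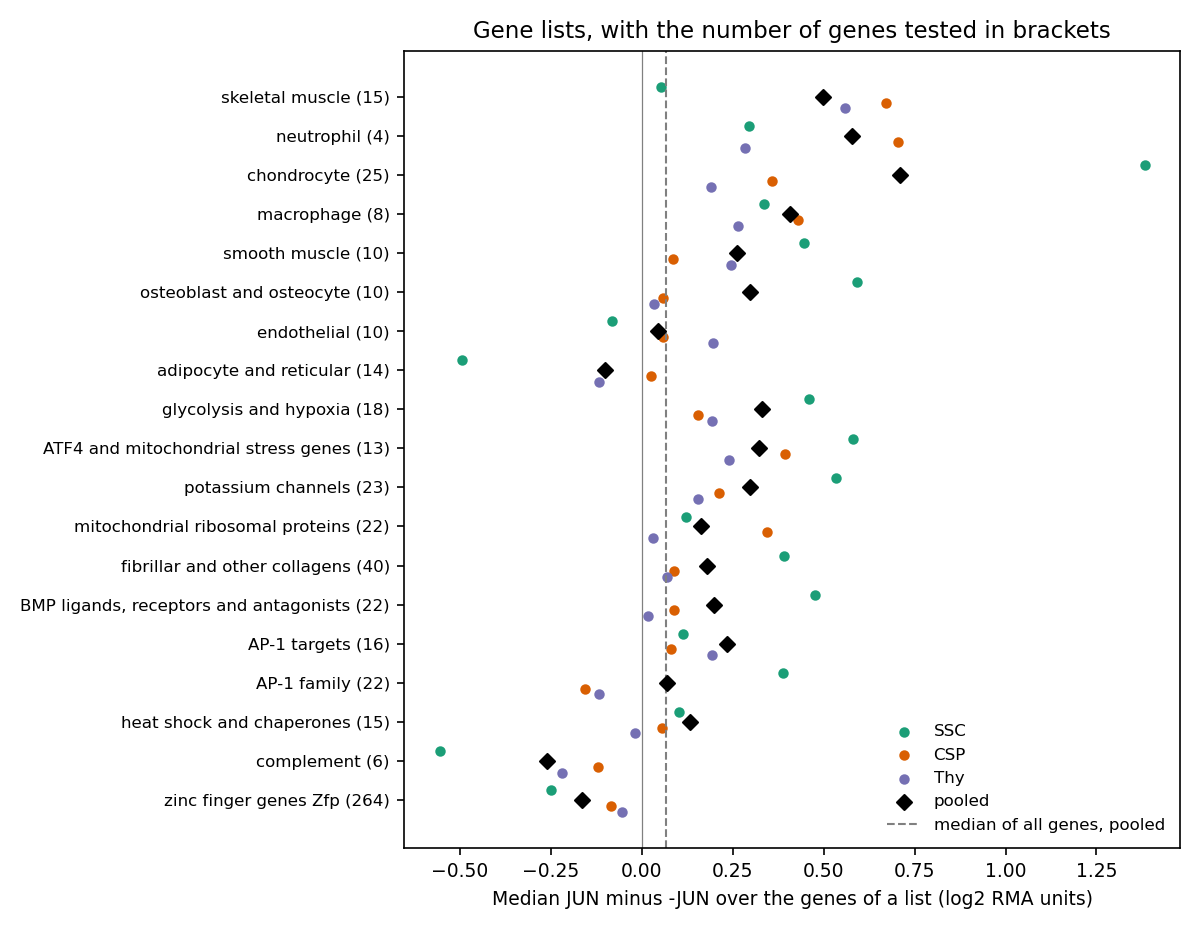
Median JUN minus -JUN difference (x axis, log2 RMA units) over the genes of 19 lists (y axis, number of genes tested in brackets), pooled as black diamonds and in SSC, CSP and Thy as coloured points, with a dashed line at the pooled median of all genes, 0.07. In SSC the chondrocyte genes stand at 1.38 and the adipocyte genes at -0.49, while the pooled median of the AP-1 family lies on the line.

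Whether 1 pooled difference serves all 3 populations was tested with the interaction. In limma, 0 of 12516 genes passed (0%), the lowest adjusted p was 1.0, and 144 stood at an unadjusted p under 0.05 (1.15%). This rested on single arrays: without the SSC array of mouse 7 there were 553 such genes and a lowest adjusted p of 0.0875, and without the Thy array of mouse 7 there were 509. Of the 28 genes of lowest p, the interaction had an unadjusted p between 0.17 and 0.996. Foxm1, a regulator of mitosis, was among the named genes that were least even, at 1.47 in SSC, 0.49 in CSP and -0.04 in Thy, for a pooled 0.64 ± 0.24.

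Gene length, which the rule did not use, was read for both directions. By the RefSeq annotation (GRCm38.p6) the median span of a gene was 12.6 kb for the 356 above in all populations and 32.0 kb for the 111 below, against 23.6 kb for all genes tested. For genes at an unadjusted p under 0.05 it was 14.6 kb on the higher side and 38.3 kb on the lower side. With a difference of 1 or more it was 23.5 kb for the 38 higher genes, near that of all genes, and 31.8 kb for the 157 lower. The middle 50% of spans ran from 5.83 to 27.8 kb for those above and from 17.2 to 62.9 kb for those below. This is a description, with no test, and genes do not count as replicates of the condition.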

How the data were processed

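Each sample is 1 Affymetrix mouse array. The deposited table holds log2 RMA values that the authors computed for every probe set (the method is named in the submitters' processing notes); its software was not given in the sources used here. Probe sets with 1 gene symbol that lay above the array median in 2 or more arrays were kept, and each gene was read on the probe set of highest mean. Genes were fitted in limma 3.58.1 (R 4.3.3) with terms for population and JUN, and p-values were adjusted by Benjamini-Hochberg over all 12516 genes, with 0.05 as the threshold. Differences are JUN minus -JUN on the log2 scale, with the SE of the fit. The fit was tested on simulated data. The number of arrays, 12, limits the precision.

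Named genes were Jun, the 14 of lowest p per direction with the same sign in every population, the 6 largest per direction without overlap, and from each of 70 lists up to 4 members of lowest p plus those at an unadjusted p under 0.05, leaving out predicted models. A few relatives and list members were named after their values were seen, namely Abca5, Abca6, Abca8a, Abca9, Tle1, Tle2, Tle3, Pdgfrb, Tgfbr2, Bmpr1a, Bmpr1b, Atf4, Car9, Hspa9, Aars, Sars and Qars. Members and lists were chosen with earlier results of these data known. Alternatives covered the filter, scaling, probe sets, blocks, covariates, and leaving out arrays, mice or populations. Arrays with the same replicate number in both arms come from different mice.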

Additional observations from a re-analysis of the deposited data

Results flagged for a closer look

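After the population means were subtracted, 1 array stood far from the other 5 of its arm for a named gene in 12 of the 260 groups of values tested, and chance alone flags about 1 in 20. The figure given is the gap to the nearest array over the whole range of the arm. In the SSC array of mouse 4, Jun (0.724, at 13.18), Atf4 (0.686, at 13.78), Pkm (0.656, at 13.59) and Col18a1 (0.660, at 12.57) were high and Abca8a (0.628, at 11.10) was low. In the CSP array of mouse 4, Epha5 (0.731, at 6.60) and S100a8 (0.765, at 9.12) were high. In the CSP array of mouse 7, Map3k1 was low (0.647, at 5.90). Without JUN, the SSC array of mouse 10 was low for Erbb2 (0.695, at 8.16), Foxm1 (0.642, at 8.40) and Col18a1 (0.653, at 10.30), and the CSP array of mouse 3b was high for Ephb6 (0.681, at 8.80).

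Tle2 was the other result marked, since its values went opposite ways in different populations, at 0.51 in SSC and -0.52 in CSP. The interaction had an unadjusted p of 0.206 in limma.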

How the results depend on the processing

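The count of 0 genes past the adjusted threshold held under all 33 alternatives, with a lowest adjusted p of 0.0967 without mouse 3b. At an unadjusted p under 0.05, there were 2048 genes, against 2020 with the mouse as a random block, 1808 on mouse means, 1157 with a covariate for sex, 1291 with array weights, 2624 without the filter on dim probe sets, 374 with the poly-A covariate and 1026 without the SSC and Thy arrays of mouse 4, an alternative chosen after seeing the data. Leaving out 1 array gave 1142 to 2956, and leaving out a population 798 to 1422. With the replicate number as a block there were 0 past the adjusted threshold and 986 at an unadjusted p under 0.05. Same-numbered arrays of the arms come from different mice and their deviations correlated at 0.508 in SSC, -0.103 in CSP and -0.180 in Thy, so the numbers do not pair the samples.

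For the interaction, 0 genes passed under each alternative run, and the count at an unadjusted p under 0.05 was 144, and 108 to 553 without single arrays. Genes above in all populations without overlap numbered 356, 246 with arrays centred on the median, 391 to 737 without single arrays, and 547 without the SSC and Thy arrays of mouse 4. Genes below numbered 111, 171 with arrays centred on the median, 141 to 349 without single arrays, and 237 without those arrays of mouse 4. With fewer arrays the condition is easier to meet.

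Among 129 named genes beside Jun, 122 never changed direction. Jun turned to 0.040 without mouse 3b, 0.087 without mouse 7 and 0.028 without CSP, and lay between -0.34 and 0.087 without single arrays or mice. Dkk2 turned to 0.052 and Tgfbr2 to 0.0065 with the poly-A covariate. Atf4 turned to -0.032 with the replicate block, -0.086 with array weights, -0.22 with the poly-A covariate, -0.20 without SSC, -0.16 without the SSC and Thy arrays of mouse 4, and lay between -0.21 and 0.32 without single arrays or mice. Bmpr1a turned to 0.17 with array weights, 0.29 with the poly-A covariate and 0.065 without those arrays. Pdgfrb turned to -0.092 with array weights, -0.028 without SSC and -0.13 without those arrays, and lay between -0.11 and 0.44 without single arrays or mice. Tle1 turned to 0.13 without CSP and lay between -0.77 and 0.43 without single arrays or mice. Tle2 turned to -0.0050 with the replicate block, -0.12 with array weights, -0.15 with the poly-A covariate, -0.17 without SSC, -0.0069 without Thy, -0.21 without those arrays, and lay between -0.15 and 0.24 without single arrays or mice. Apart from the effect of fewer arrays, the cause was not tested.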
